A study of Mus musculus with 4 samples.

Results

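MicroRNA genes were read by transcript clusters, the probe groups of an expression array, in mouse gastrocnemius. The 110 genes described here were chosen by their annotation symbol (Mir or Mirlet followed by a digit) and by a mean intensity over the 4 arrays above 5.852, the median over all clusters. They are 110 of the 483 microRNA genes read by a cluster with a single gene symbol, and 110 of the 13230 genes of any kind above that threshold. Each gene was represented by its brightest such cluster. Because intensity chose them, their level is a description, and the mean hides single arrays: 97 of the 110 lay above the threshold on every array and 13 fell under it on at least 1 array. Just inside the threshold lay Mir615 at a mean intensity of 5.88, Mir1929 at 5.91 and Mirlet7e at 5.97. Just outside it lay Mir694 at 5.796, Mir219a-2 at 5.78 and Mir27a at 5.78. Among the members, 1 is not a hairpin gene: Mir1a-1hg is the host transcript of a microRNA.

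The study had 1 array for each of 4 groups. They were wild type mice given vehicle (WT vehicle), wild type mice given streptozotocin (WT STZ), skeletal muscle specific KLF15 knockout mice given vehicle (KO vehicle) and such knockout mice given STZ (KO STZ). STZ is a toxin of the insulin-producing beta cells and was injected into the peritoneum at 50 mg/kg on 5 consecutive days, dissolved in 50 mM sodium citrate at pH 4.5, which alone served as vehicle. Muscle was taken 3 weeks after treatment, and biotin-labelled cRNA was made from 4 ug of total RNA purified on silica columns. The sources used here do not state strain, sex, age or the Cre driver that makes the knockout muscle specific, nor whether an array holds RNA of 1 mouse or a pool. With 1 array per group there is no replicate, so no error between animals can be given, no test was run, and higher or lower describes single arrays. The number of arrays limits the precision of every value below.

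A microRNA is made from a long primary transcript that is cut in the nucleus to a hairpin and in the cytoplasm to a short mature strand. Loaded into an Argonaute protein, the mature strand pairs with messenger RNAs mainly through its seed, bases 2 to 8, and lowers their translation or stability. Many microRNAs lie in introns of host genes or next to each other in polycistronic clusters and are then transcribed together. Skeletal muscle is known for a small group of abundant microRNAs, the miR-1, miR-206 and miR-133 families together with miR-208b and miR-499, which lie inside myosin heavy chain genes. Purification on silica columns of this kind retains mostly RNA longer than mature microRNAs, and expression arrays of this kind label whole transcripts. The values below are therefore probe intensities for microRNA genes and not levels of mature microRNA. Intensities of different clusters depend on their probes, so a gene above the threshold is not shown to have more RNA than a gene below it.

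The sequences on which the results turn are shown from RefSeq on build GRCm38.p6. Of the 483 genes, 400 matched a RefSeq hairpin, 88 of them members. The muscle microRNAs are shown because nearly all of them lay under the threshold, with the seed of each mature strand in capitals. For miR-1 the 5p strand is shown, and miR-1a-3p, the strand that the miR-1 family is known for, and miR-133a are not shown here.
mmu-miR-1a-1-5p: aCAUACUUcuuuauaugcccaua
mmu-miR-206-3p: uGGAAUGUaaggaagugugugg
mmu-miR-133b-3p: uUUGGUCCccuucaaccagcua
mmu-miR-208b-3p: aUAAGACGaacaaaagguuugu
mmu-miR-499-5p: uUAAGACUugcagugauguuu
Both myosin-encoded strands carry UAAGAC from base 2, so most of their seed is shared.

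The next sequences belong to members with large differences between arrays, again with seeds in capitals. Mir188 and Mir1198 lie on chromosome X, Mir540 on chromosome 12, Mir107 on chromosome 19 and Mir3091 on chromosome 2.
mmu-miR-188-5p: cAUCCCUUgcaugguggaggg
mmu-miR-188-3p: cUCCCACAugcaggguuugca
mmu-miR-1198-5p: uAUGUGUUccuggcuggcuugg
mmu-miR-540-5p: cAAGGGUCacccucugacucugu
mmu-miR-540-3p: aGGUCAGAggucgauccugg
mmu-miR-107-3p: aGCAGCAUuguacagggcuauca
mmu-miR-3091-5p: cAUGGGUCugguugggcccgc
mmu-miR-139-5p: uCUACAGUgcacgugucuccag
mmu-miR-101c: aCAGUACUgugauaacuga

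Whole hairpins are shown for genes that span the range of base composition, with the mature strands in capitals. Mir206 (chr1:20679010-20679082, plus strand) holds 42.5% G and C bases, Mir703 (chr5:98475556-98475664, minus strand) 31.2% and Mir210 (chr7:141221384-141221493, minus strand) 69.1%.
Mir206 hairpin: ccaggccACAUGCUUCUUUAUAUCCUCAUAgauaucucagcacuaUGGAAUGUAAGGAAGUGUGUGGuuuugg
Mir703 hairpin: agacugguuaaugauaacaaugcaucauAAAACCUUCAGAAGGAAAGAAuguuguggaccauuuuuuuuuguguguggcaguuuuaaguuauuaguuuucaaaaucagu
Mir210 hairpin: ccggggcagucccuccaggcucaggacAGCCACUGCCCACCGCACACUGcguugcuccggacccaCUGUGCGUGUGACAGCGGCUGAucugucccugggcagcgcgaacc
The members Mir680-1, Mir680-2 and Mir680-3 form the only seed group of 3 members and have the same mature strand, given here with the hairpins of Mir680-1 and Mir680-2. These hairpins share 25 or more consecutive bases, so their probes may not tell the copies apart.
mmu-miR-680: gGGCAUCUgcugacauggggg
Mir680-1 hairpin: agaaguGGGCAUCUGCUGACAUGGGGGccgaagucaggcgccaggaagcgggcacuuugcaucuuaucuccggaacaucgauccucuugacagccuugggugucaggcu
Mir680-2 hairpin: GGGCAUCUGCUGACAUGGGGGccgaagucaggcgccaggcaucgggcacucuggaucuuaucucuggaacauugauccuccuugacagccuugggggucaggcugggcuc

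On these arrays the tissue label was met by high intensities of skeletal muscle genes, for example 7545 to 8549 for Acta1, skeletal actin, and 7237 to 7549 for Myh4, the fast IIb myosin. Klf15, the deleted gene, encodes a Kruppel-like transcription factor and read 50.5 and 72.1 in WT, and 19.8 and 16.04 in KO, vehicle before STZ. The sources used here do not say whether its probes lie in the deleted part. Differences are given as log2(intensity + 3.69), where the added value is percentile 25 of all intensities, and they understate changes of dim genes. Array medians on this scale spanned 0.035. Summed intensity of the 9 slow fibre markers was 1618, 1673, 1326 and 1076 in the order WT vehicle, WT STZ, KO vehicle, KO STZ, and that of the 6 adipocyte markers measured, of which 5 lay above the threshold, was 1093, 1363, 1108 and 882. The 6 tendon markers summed to 496.5, 570.4, 667.2 and 658.7, higher in KO. The 7 fibroblast markers summed to 2888, 3162, 3314 and 3373. In KO against WT, 5 of these 7 had a difference above 0 under vehicle and 2 under STZ, with medians of 0.27 and -0.07. The 2 under STZ were Col1a1 and Col3a1. The 8 macrophage markers summed to 288, 359, 322 and 379, higher on both STZ arrays. Of the 7 macrophage markers above the threshold, 5 were higher after STZ in WT and 4 in KO. Sums over the 4 arrays ran from 633 to 745 for endothelium, 3290 to 3661 for smooth muscle, 182 to 230.4 for nerve and Schwann cells and 32.6 to 34.5 for blood cells. None of these markers was at 0, and their part in the differences of microRNA genes was not tested. In whole muscle, fewer cells of a type and less RNA per cell cannot be told apart.

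The microRNAs that muscle is best known for were not among the members. All 8 muscle microRNA hairpins with a cluster of their own lay under the threshold of 5.852 on every array. So did most of the class by its mean, since 373 of the 483 microRNA genes were not members and 22.8% were. Mir1a-1 read 3.37 and 3.11 in WT, and 4.69 and 3.20 in KO, vehicle before STZ. Mir206 read 2.50, 2.70, 3.14 and 2.60 in the same order, and Mir133b, its neighbour in the transcript Lincmd1, read 4.62, 3.87, 4.24 and 3.81. Every Mir206 value was under percentile 25 of all intensities, 3.69, and every Mir133b value above it. Mir133a-1 ranged from 3.45 to 4.28 and Mir133a-2 from 2.47 to 5.01. Within each of these genes the 4 arrays differed by less than 1.5-fold on the log2 scale used here. The added 3.69 is close to these intensities and shrinks such differences, so neither change nor stability can be read from them. Among the microRNAs of myosin genes, Mir208a ranged from 2.97 to 3.66, Mir208b from 2.58 to 3.06 and Mir499 from 2.98 to 3.02. Mir1a-2, Mir1b and Mir486 share clusters with other symbols and have no value here.

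Host genes of some of the muscle hairpins passed the threshold, as did 59.6% of all genes. Mir1a-1hg, the host transcript of Mir1a-1, read 65.0 and 39.1 in WT, and 67.7 and 53.9 in KO, vehicle before STZ. Within each genotype the STZ array was the lower one, by a log2 difference of -0.68 in WT and -0.31 in KO. The KO array was above WT by 0.06 under vehicle and 0.43 under STZ. Mir1a-1hg is the only member that comes from the locus of a listed muscle microRNA. The host genes named here for the other loci were picked after their values were seen. Myh7, the slow myosin that holds Mir208b, read 192, 180, 160 and 123, and the KO STZ array was the lowest. Myh7b, which holds Mir499, read 7.82, 6.43, 7.68 and 7.64, and Myh6, the cardiac myosin that holds Mir208a, read 6.81, 6.04, 6.04 and 5.95. Each of these host genes was above the threshold on every array while the hairpin inside it was below, as read by different probes.

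**Figure D1:**
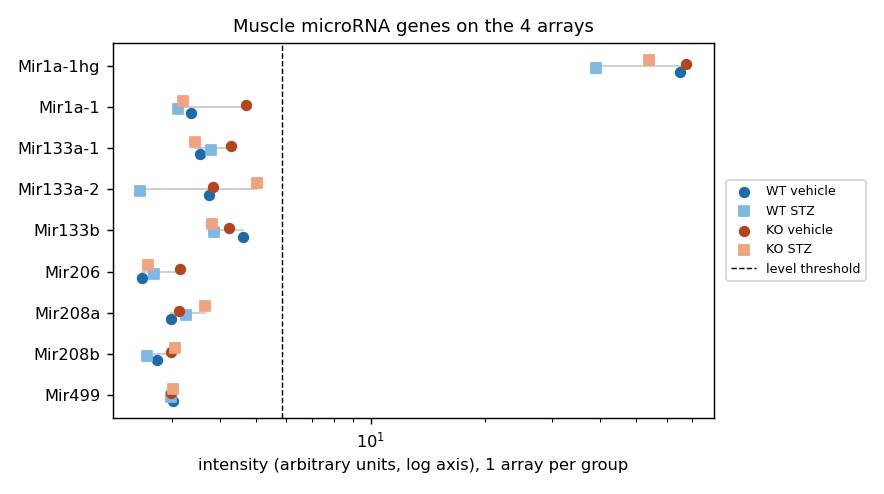
Intensity of the muscle microRNA genes and of Mir1a-1hg on the 4 arrays, on a log axis with 1 point per array, where the dashed line is the level threshold of 5.852. All 8 hairpins sit to the left of the line on every array, and Mir1a-1hg sits to its right at 39.1 to 67.7.

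The promoter of Mir1a-1hg is shown because it is the muscle locus with a member above the threshold and the STZ difference in WT. The window (chr2:180385354-180385653, plus strand, GRCm38.p6) runs from 250 bases before the annotated start to 50 after it. Capitals mark CANNTG, the E-box bound by MyoD and its relatives, and CACCC, a box that Kruppel-like factors can bind.
Mir1a-1hg promoter: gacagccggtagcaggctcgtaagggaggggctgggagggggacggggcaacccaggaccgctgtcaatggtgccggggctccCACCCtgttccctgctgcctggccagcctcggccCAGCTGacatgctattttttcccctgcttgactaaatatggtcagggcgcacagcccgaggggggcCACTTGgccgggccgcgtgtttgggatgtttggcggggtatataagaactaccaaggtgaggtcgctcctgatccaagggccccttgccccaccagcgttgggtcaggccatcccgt
It holds 2 CANNTG matches, which begin 133 and 67 bases before the start, and 1 CACCC match, which begins 167 bases before it. On both strands, 72.3% of 32851 promoters of this length hold a CANNTG and 57.5% a CACCC. The motifs do not overlap here, and a match is a description and not a site of binding. Regulators of the muscle loci were measured as a list of 12 genes, of which 11 lay above the threshold. None of the 11 passed 1.5-fold in any comparison, and their medians ran from -0.10 to 0.01. Of all genes 59.6% lay above the threshold, and 0.446% to 3.92% of those passed 1.5-fold each way, depending on the comparison. Srf, a partner of the myocardin-related factors, read 264, 259, 239 and 223, Mef2c, a muscle transcription factor, 835, 788, 852 and 761, and Myod1 41.2, 47.4, 46.0 and 44.5. The lowest Srf and Mef2c values were both on the KO STZ array.

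The hairpins of members held more G and C bases at the median than those of the other microRNA genes. The median share of G and C was 55.8% in the 88 member hairpins, with quartiles at 49.2% and 62.4%. In the 312 hairpins under the threshold it was 46.6%, with quartiles at 42.0% and 52.4%. Hairpin length did not separate them, with a median of 83 bases in both. Of hairpins under 40% G and C, 4 of 61 were members (6.56%), against 19 of 160 at 40 to 50% (11.9%), 31 of 133 at 50 to 60% (23.3%) and 34 of 46 at 60% and over (73.9%). Membership was set by the mean intensity of probes that differ from gene to gene, so these shares are a description, with no test. Lying in a host gene was about as common in both sets, at 51.1% of member hairpins and 47.8% of the others. Among the muscle hairpins, those of Mir206, Mir208b and Mir208a hold 42.5%, 45.5% and 49.4% G and C, and those of Mir499 and Mir133b 51.9% and 56.3%. Whether base composition of the probes sets these intensities was not tested.

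**Figure D2:**
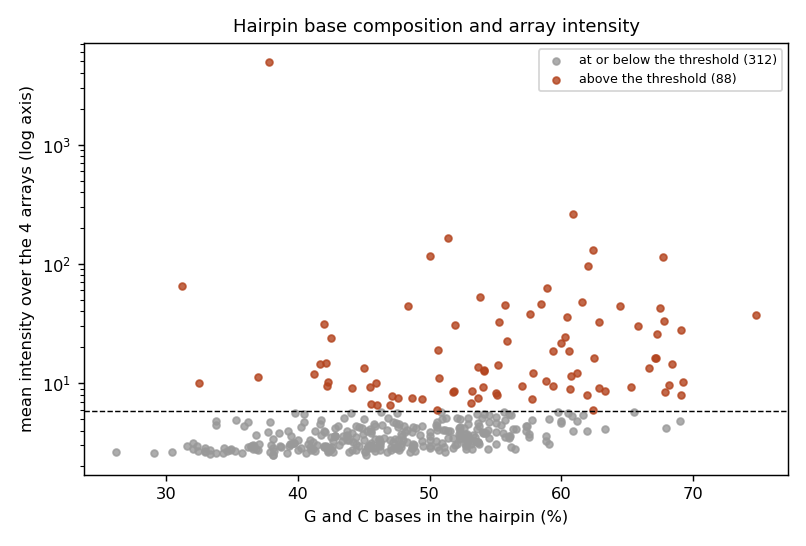
Share of G and C bases in the hairpin (%) against mean intensity over the 4 arrays (log axis) for 400 microRNA genes with a RefSeq hairpin, where each point is a gene and the dashed line is the threshold. Of the 46 hairpins at 60% and over, 34 lie above the line, against 4 of the 61 under 40%.

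Most members stayed within 1.5-fold, though a larger share passed it than of all genes above the threshold. The largest minus the smallest log2 value over the 4 arrays had a median of 0.42, and 89 of the 110 stayed within 1.5-fold in all 4 pairwise comparisons. The other 21 members (19.1%) passed 1.5-fold in at least 1, against 6.21% of all genes above the threshold. The SD of the log2 difference over members was 0.27 to 0.36 in the 4 pairwise comparisons, against 0.21 to 0.27 over all genes and 0.21 to 0.25 over the 7735 genes no brighter than the members' upper quartile of 32.6. Shares are set beside those of all genes as a description only.

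**Figure D3:**
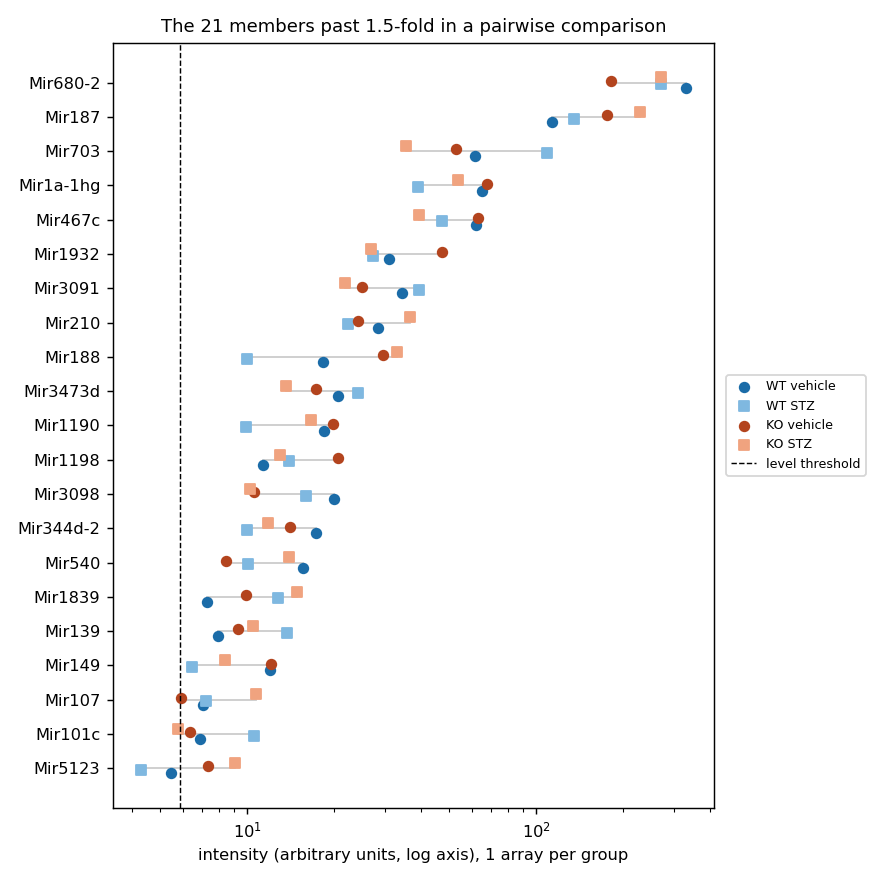
Intensity on each of the 4 arrays (log axis, 1 point per array) for the 21 members past 1.5-fold in a pairwise comparison, with the level threshold as a dashed line. Mir703 is highest on the WT STZ array and lowest on the KO STZ array, and Mir188 is lowest on the WT STZ array and highest on the KO STZ array.

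The comparison of KO vehicle with WT vehicle asks what loss of KLF15 in muscle does without STZ. Of the 110 members, 3 were 1.5-fold or more higher in KO, where 0.582% of all genes were, and 3 were lower, where 0.779% were. None passed 2-fold, where 0.0227% of all genes were higher and 0.0756% lower. Within 1.5-fold stayed 104 members, and the members' median difference was 0.00, as was that of all genes. Mir1198, inside the X-linked gene Gripap1, read 11.4 and 13.9 in WT, and 20.7 and 13.0 in KO, vehicle before STZ. It was 0.69 higher in KO under vehicle, and only the KO vehicle array stood apart from the other 3. Mir187 was 0.61 higher and Mir188 0.59, and both are described with the STZ arrays. Mir1933 and Mir1932 followed at 0.58 and 0.55, under 1.5-fold.

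On the lower side under vehicle, Mir680-2 read 331 and 272 in WT, and 181 and 271 in KO, vehicle before STZ, a difference of -0.85. The KO vehicle array was the low one, and both STZ arrays were alike. As a near copy of Mir680-1 its identity is uncertain, and the clusters of Mir680-1 and Mir680-3, which share its mature strand, differed by 0.20 and -0.07. Those 2 clusters had mean intensities of 7.36 and 7.43, near the threshold, against 264 for Mir680-2. Whether the copies moved together could therefore not be told. Mir3098 read 20.05, 16.04, 10.6 and 10.2, so both KO arrays lay below both WT arrays, with differences of -0.74 under vehicle and -0.50 under STZ. Mir540, a maternally expressed microRNA of the imprinted Dlk1-Dio3 region, read 15.7, 10.07, 8.48 and 13.99 with a difference of -0.67, and the KO array was the higher one under STZ. Its neighbour Mir673 came next at -0.58, followed by Mir181c, a member of the miR-181 family, at -0.54.

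The comparison of KO STZ with WT STZ asks the same after STZ. Of the 110 members, 4 were 1.5-fold or more higher in KO against 0.847% of all genes, and 4 were lower against 2.81%. Mir188 was the 1 member past 2-fold higher and Mir703 the 1 past 2-fold lower, where 0.0529% and 0.287% of all genes were. The members' median was 0.08 with 58.2% above 0, against -0.05 and 41.7% in all genes. Small nucleolar RNA genes, another class of short noncoding RNA, had a median of -0.28 over 64 genes. They were brighter, with median intensities of 82.2 to 104.4 on the 4 arrays against 12.2 to 14.1 for the members. Genes no brighter than the members' upper quartile had a median of 0.01. By base composition the members' median was 0.08 under 50% G and C, -0.01 at 50 to 60% and 0.15 at 60% and over, and the part of base composition in this was not tested.

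Mir188 read 18.4 and 10.02 in WT, and 29.5 and 33.0 in KO, vehicle before STZ. Both KO arrays lay above both WT arrays, and the difference was 0.59 under vehicle and 1.42 under STZ. It lies in an intronic cluster of Clcn5, a chloride transporter gene, with 4 other hairpins on this array. None of these neighbours, Mir362, Mir500, Mir501 and Mir532, reached the threshold, and their values ran from 2.84 to 4.40. Clcn5 itself, named after its values were seen, read 6.64, 7.21, 7.12 and 5.47, a difference of 0.06 under vehicle and -0.25 under STZ. Below the threshold no difference of the neighbours could be read, and Clcn5 lay near it. Mir187 read 114 and 136 in WT, and 176 and 228 in KO, vehicle before STZ. Here too both KO arrays were above both WT arrays, by 0.61 and 0.74, and each STZ array was above its vehicle array. Mir187 and Mir188 were the only members past 1.5-fold the same way in both KO comparisons, which share no array, and 0 were past it lower in both. Mir188 under vehicle lay at the line and stayed past it in 2 of 5 alternative settings, with 0.54 as the lowest value, while Mir187 stayed past it in all 5. Averaging clusters, 1 of the 5, could change neither, since each gene has 1 cluster. Over all members, 71 of 110 had the same sign in both, against 56.3% of all genes.

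Mir703 read 61.5 and 109 in WT, and 53.0 and 35.4 in KO, vehicle before STZ. The WT STZ array was the highest and the KO STZ array the lowest, which gave a difference of -1.53 under STZ against -0.20 under vehicle. Mir703 lies in no host gene on its strand and has no other microRNA gene of the array at its locus. Mir210, a microRNA induced by hypoxia through HIF1, read 28.5, 22.4, 24.2 and 36.7 and was 0.63 higher in KO under STZ. Hif1a, chosen after its values were seen, read 28.04, 36.2, 33.2 and 28.5, and its KO STZ value was below its WT STZ value. These are RNA intensities. HIF1 protein was not measured here, and its part in Mir210 was not tested. Mir5123 read 5.45, 4.28, 7.33 and 9.09, a difference of 0.68, with both WT arrays under the threshold. Mir425, which shares a locus in Dalrd3 with Mir191, was 0.58 higher, just under 1.5-fold, and Mir191 0.28.

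On the lower side under STZ, Mir3091 read 34.3, 39.2, 24.96 and 21.9, with both KO arrays below both WT arrays and a difference of -0.75. It lies inside Rps21, a ribosomal protein gene with no cluster of its own symbol here. Mir3473d read 20.7, 24.2, 17.4 and 13.7, a difference of -0.69, and Mir101c, a microRNA of the miR-101 family, 6.88, 10.6, 6.36 and 5.77, a difference of -0.59. The last rests on the WT STZ array, the only 1 of the 4 on which Mir101c stood apart. Mir692-1, a near copy of Mir692-2, was -0.58, under 1.5-fold.

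**Figure D4:**
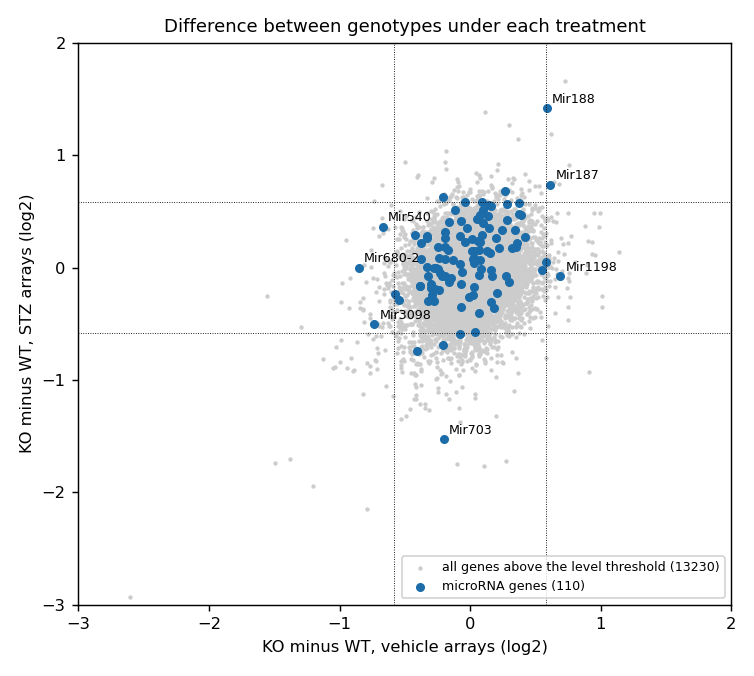
Log2 difference between KO and WT on the vehicle arrays (horizontal) and on the STZ arrays (vertical), with 110 microRNA genes in blue over 13230 genes in grey and dotted lines at 1.5-fold. Mir187 and Mir188 lie past both dotted lines on the upper right, Mir188 at 0.59 only just past the vehicle line, and Mir703 lies lowest among the members at -1.53 under STZ.

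The comparison of WT STZ with WT vehicle asks what STZ does in normal muscle. It shares the WT STZ array with the comparison just described, so members in which that array stood apart appear in both. The members' medians of both comparisons rest on that array too. Of the 110 members, 3 were 1.5-fold or more higher after STZ, where 1.28% of all genes were, and 5 were lower, where 0.446% were. None passed 2-fold, where 0.0983% of all genes were higher and 0.0227% lower. As a class the members leaned lower, with a median of -0.08 and 35 of 110 above 0 (31.8%). In all genes the median was 0.01 with 51.6% above 0, and in small nucleolar RNA genes it was 0.41 with 90.6% above 0. Genes up to the members' upper quartile of intensity had a median of -0.01. The members' median was -0.04 under 50% G and C (23 genes), -0.07 at 50 to 60% (31 genes) and -0.19 at 60% and over (34 genes). It moved with base composition, whose part was not tested.

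Higher after STZ in WT were Mir703 by 0.79, Mir1839 by 0.59 and Mir139, an intronic microRNA of Pde2a, by 0.59. Mir139 read 7.95 and 13.8 in WT, and 9.32 and 10.5 in KO, vehicle before STZ, with the WT STZ array the highest. Pde2a, named after its values were seen, read 77.4, 70.9, 80.0 and 61.3, with a difference of -0.12 after STZ in WT. Mir1839 read 7.26, 12.8, 9.96 and 14.9, so that both STZ arrays lay above both vehicle arrays, by 0.59 in WT and 0.45 in KO. Mir101c and Mir375 followed at 0.43 and 0.40. Mir375, the microRNA best known from pancreatic islets, read 12.6, 17.9, 14.4 and 19.9 and was likewise higher on both STZ arrays, by 0.38 in KO.

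Lower after STZ in WT were Mir1190 at -0.70, Mir188 at -0.69, Mir1a-1hg at -0.68, Mir149 at -0.63 and Mir344d-2 at -0.62. Mir1190 read 18.5, 9.93, 19.9 and 16.7, with WT STZ apart from the other 3 arrays. Mir149 read 12.0, 6.44, 12.1 and 8.36, where each STZ array was below its vehicle array. Its seed AGGGAGG is shared with the member Mir1943, which read 18.3, 14.9, 12.8 and 19.05 and was -0.24 in WT and 0.47 in KO. This pair thus had the same sign after STZ in WT and opposite signs in KO. Mir181a-2 and Mir181d share ACAUUCA and were -0.37 and -0.45 in WT, and -0.0007 and -0.25 in KO. Mirlet7a-1 and Mirlet7e share GAGGUAG and were -0.09 and -0.13 in WT, and 0.10 and -0.20 in KO. Mir3473d and Mir674 share CACUGAG and were 0.20 and 0.06 in WT, and -0.28 and 0.21 in KO. Mir344d-2, a near copy of Mir344d-1 and Mir344d-3 and of uncertain identity, read 17.4, 10.02, 14.1 and 11.8.

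The comparison of KO STZ with KO vehicle gave the fewest members past 1.5-fold. There was 1 member higher, where 0.454% of all genes were, and 2 were lower, where 0.658% were. None passed 2-fold, where 0.0378% of all genes were higher and 0.0454% lower. The median was 0.00 against -0.03 in all genes. Mir107, which lies in an intron of the pantothenate kinase gene Pank1 and is known for dampening insulin sensitivity, read 7.05 and 7.24 in WT, and 5.90 and 10.7 in KO, vehicle before STZ. After STZ it was 0.59 higher in KO, only just past 1.5-fold, and 0.50 with the offset at the median. All 4 arrays lay above the threshold of 5.852, the KO vehicle array only just. Pank1 read 23.9, 20.5, 25.4 and 16.1 and moved the other way, with a difference of -0.55. Mir680-2 at 0.57, Mir540 at 0.54, Mir210 at 0.53 and Mir142, a microRNA of blood cells, at 0.48 followed under 1.5-fold. Lower were Mir1932 at -0.73, inside Rnf213, and Mir467c at -0.63. Mir1932 read 31.1, 27.3, 47.1 and 26.9, so that the KO vehicle array was the one apart. Mir467c read 61.8, 47.4, 62.9 and 39.3, with each STZ array below its vehicle array. Mir1198 at -0.55, Mir703 at -0.54 and Mir1981 at -0.40 came next. The STZ comparisons of the genotypes share no array. In them 57 of 110 members had the same sign, against 51.1% of all genes, and 0 members passed 1.5-fold the same way in both.

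**Figure D5:**
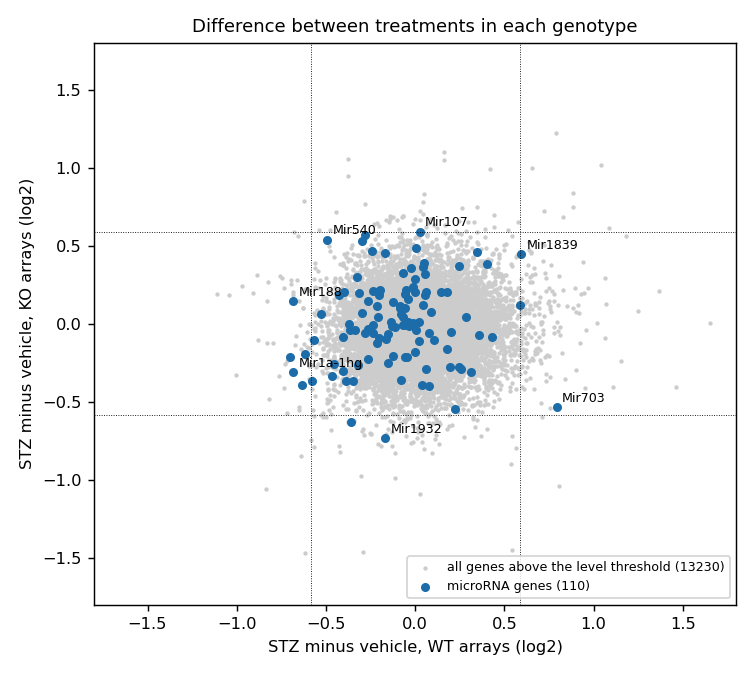
Log2 difference between STZ and vehicle on the WT arrays (horizontal) and on the KO arrays (vertical), with 110 microRNA genes in blue over 13230 genes in grey and dotted lines at 1.5-fold. No member lies past 1.5-fold in the same direction in both, and Mir703 lies at 0.79 in WT and -0.54 in KO.

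The difference between the STZ differences of KO and WT uses all 4 arrays. Of the 110 members, 10 were 1.5-fold or more higher, meaning more positive in KO, where 1.76% of all genes were, and 3 were lower, where 3.92% were. Past 2-fold were Mir540 higher and Mir703 lower, where 0.136% and 0.249% of all genes were. The median was 0.13 with 70.9% of members above 0, against -0.05 and 42.9% in all genes and -0.39 and 14.1% in small nucleolar RNA genes. Genes up to the members' upper quartile had a median of 0.00. The members' median was 0.18 under 50% G and C, 0.12 at 50 to 60% and 0.22 at 60% and over. The members' medians that lay away from 0, here and in the pairwise comparisons, all used the WT STZ array. They are not separate results. KO against WT under vehicle and STZ against vehicle in KO do not use that array. There the members' medians were 0.00, with 50% and 49.1% above 0. Mir703 had -1.33, from 0.79 in WT and -0.54 in KO. Mir540 had 1.03, from -0.49 in WT and 0.54 in KO. Mir680-2 at 0.85, Mir210 at 0.83 and Mir188 at 0.83 followed. The other members past 1.5-fold higher were Mir1943, Mir425, Mir5135, Mir92b, Mir34b and Mir574, at 0.71 to 0.59. Of these, Mir1943, Mir5135, Mir92b and Mir574 are named to complete the count, after their values were seen. Lower besides Mir703 were Mir1198 at -0.77 and Mir692-1 at -0.62, with Mir1932 at -0.57 under 1.5-fold.

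Grouped by locus, most neighbours of members lay under the threshold in the imprinted clusters. So did most microRNA genes anywhere, since 22.8% of all 483 were above it. In the Dlk1-Dio3 region on chromosome 12, an imprinted domain with a long maternally expressed microRNA array, 30 hairpins of the larger cluster were on the array and 5 were members: Mir299a, Mir329, Mir409, Mir667 and Mir758. The adjacent cluster gave 3 members of 7, Mir540, Mir665 and Mir673. Those 3 did not share a pattern, since under KO STZ against KO vehicle Mir540 was 0.54, Mir673 0.39 and Mir665 -0.37. Mir409 read 26.9, 23.9, 36.4 and 34.6, with both KO arrays above both WT arrays. Mir299a read 9.42 on both WT arrays, the identical value, and 13.3 and 15.8 on the KO arrays. Of the list of imprinted loci, 10 of 37 measured genes lay above the threshold, against 22.8% of all 483 microRNA genes. None of the 10 was above 0 in WT STZ against WT vehicle, 6 were in KO STZ against KO vehicle, and 9 were for the difference between these, with medians of -0.10, 0.20 and 0.23. The difference subtracts the WT comparison, so its 9 is not a separate result. Over all 110 members, 31.8%, 49.1% and 70.9% were above 0 in these comparisons, and over all genes 51.6%, 42.8% and 42.9%. Mir540 was the only 1 of the 10 past 1.5-fold in any of these. Mir666 and Mir298, the latter from the imprinted Gnas domain, were 0.56 and 0.55 higher in KO under STZ. The host transcripts Meg3 at 6.27, 6.29, 6.81 and 6.51 and Rian at 6.76, 8.45, 7.42 and 8.91, chosen after their values were seen, stayed within 1.5-fold.

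The let-7 family, which times differentiation and restrains genes of insulin signalling, had 3 of 17 measured members of its list above the threshold. Mirlet7a-1 read 26.1, 24.4, 21.7 and 23.4, Mirlet7e 6.76, 5.89, 6.28 and 4.96, and their partner locus member Mir99b 18.3, 15.0, 13.3 and 15.9. None of the 3 passed 1.5-fold in any comparison, where 0.446% to 3.92% of all genes did each way, depending on the comparison. Of microRNAs known from atrophy, insulin action and lipid handling, 4 of 28 passed the threshold. Besides Mir107 and Mir375 these were Mir34b, a p53 target, at 9.27, 6.16, 6.61 and 8.15, and Mir23b at 8.75, 8.31, 6.47 and 6.43. Mir23b lay lower on both KO arrays, by differences of -0.29 and -0.25. Of endothelial, blood and immune microRNAs, 5 of 16 passed the threshold and none passed 1.5-fold in any comparison. They included Mir142 at 8.53, 8.58, 7.97 and 12.6 and Mir15a at 21.1, 24.8, 21.0 and 20.1. Of 9 loci known from extracellular matrix and fibrosis, only Mir542 passed, at 8.95, 7.66, 9.73 and 7.57. Of 10 genes of the miR-17 clusters, 0 passed. Of all 483 microRNA genes 22.8% passed, and these lists are too short for their counts to be told apart from that share.

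Members inside host genes shared a sign with them in about as many pairs as they did not. On the same strand, 45 members lay in a host gene, and for 36 of them the host was itself measured above the threshold. Member and host had the same sign in 19 of 36 in KO against WT under vehicle, 15 under STZ, 15 in STZ against vehicle in WT and 16 in KO. Mir185 read 50.5, 48.5, 40.4 and 43.6, while its host Tango2 read 82.0, 118, 62.4 and 54.9, a host difference between genotypes under STZ of -1.05 against -0.14 for Mir185. Mir339 was 0.48 higher in KO under STZ, where its host 3110082I17Rik was -0.66. Mir483, in an intron of the growth factor gene Igf2, was -0.13 after STZ in WT and Igf2 -0.42. Mir1191 and Mir5120 differed from BC024978 and Pax5 under vehicle in sign, at -0.24 against 0.35 and 0.27 against -0.41.

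Genes that make and use microRNAs moved little. Of 35 measured, 34 lay above the threshold, against 59.6% of all genes. None passed 1.5-fold in KO against WT under vehicle or after STZ in either genotype. In these comparisons 0.446% to 1.28% of all genes passed it each way, so few in a list of this length would. Under STZ only Srsf3, a splicing factor that aids hairpin processing, passed 1.5-fold in KO against WT, with a difference of -0.61. It read 19.8, 28.6, 23.8 and 17.5, and 2.81% of all genes were lower in that comparison. Drosha, the nuclear nuclease, read 92.8, 99.0, 94.4 and 85.1, Dicer1, the cytoplasmic nuclease, 59.0, 58.6, 52.4 and 50.7, and Ago2, the slicing Argonaute, 182, 168, 213 and 203. The list's medians ran from -0.13 in KO against WT under STZ to 0.02 under vehicle. For the difference between STZ differences, Lin28a, a blocker of let-7 maturation, was 0.61 and Srsf3 -0.84. There 1.76% of all genes were higher and 3.92% lower.

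Known targets of the muscle microRNAs, a list that includes Klf15 itself, had 17 of 18 measured genes above the threshold, against 59.6% of all genes. Apart from Klf15, only Notch3, a receptor of vascular mural cells, passed 1.5-fold in KO against WT, at 17.5, 19.5, 31.3 and 21.5 and a difference of 0.72 under vehicle. No listed gene passed 1.5-fold after STZ in either genotype, where 0.446% to 1.28% of all genes did each way. For the difference between STZ differences Notch3 had -0.60 and Klf15 -0.74, where 3.92% of all genes were lower. Known targets of miR-29 were 13 of 13 above the threshold. In KO against WT, 4 were 1.5-fold or more higher under vehicle, where 0.582% of all genes were, and 6 under STZ, where 0.847% were. The list's medians were 0.50 and 0.51, against 0.00 and -0.05 in all genes. The list was drawn up with higher collagens in KO on these arrays already known, so it is no independent evidence. The list's genes outside the matrix did not move alike. Dnmt3a, a DNA methyltransferase, read 35.8, 28.4, 45.8 and 52.1, a difference of 0.33 under vehicle and 0.80 under STZ. Dnmt3b, also a DNA methyltransferase, was 0.27 under vehicle and -0.10 under STZ, and Mcl1, a survival factor of the BCL2 family, 0.03 and -0.33. Mir29a read 2.78, 3.36, 2.79 and 3.07 and Mir29b-1 2.34, 2.73, 2.68 and 2.96, below the threshold on every array, so no difference of the microRNA could be read.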

How the data were processed

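RNA of 4 gastrocnemius samples was measured on Affymetrix arrays, 1 per group as assigned by the labels. The authors deposited a linear intensity for each of 41345 clusters on each array. How background was corrected, probes summarised and arrays normalized is not stated by the sources used here, and 0 columns of per-sample values were left unused. Intensities were turned into log2(intensity + 3.69), with percentile 25 of all values as offset, and were not rescaled, since the array medians lay within 0.1 of each other. Of the clusters, 23521 had a single gene symbol in the platform annotation, 1814 had several and 16010 had none. Genes came from single-symbol clusters only, and 143 microRNA symbols found only in clusters with several symbols are not analysed here. All 483 microRNA genes matched RefSeq through their Entrez number, with 0 symbols changed. Hairpins, mature strands, promoters and host genes came from RefSeq on GRCm38.p6; the sources used here do not name the build of the array annotation.

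Comparisons were KO against WT under each treatment, STZ against vehicle in each genotype and the difference of the latter. No test was possible with 1 array per group. Genes were counted at 1.5-fold and 2-fold. Members, gene lists and rules were chosen with earlier results of these data known. Named genes are Klf15, the muscle microRNAs, the members with the 5 highest and 5 lowest differences of each pairwise comparison and 4 each way for the difference, members past 1.5-fold in both KO or both STZ comparisons, the 3 genes on each side of the threshold, up to 4 members per list, up to 6 with the most changed hosts, and seed groups of 3 or more. Other genes named, such as neighbours at a locus and genes of the processing, regulator and target lists, were picked after their values were seen. Host genes were those containing the hairpin on the same strand. A locus joins hairpins less than 10 kb apart, and near copies share 25 or more consecutive bases. Alternatives were quantile normalization, subtraction of a lowess trend with a span of 0.3, other offsets, other level filters, averaging clusters, and leaving out host transcripts or near copies. The counting was tested on simulated data. Python 3.11.15, numpy 2.4.6, pandas 2.3.3, statsmodels 0.14.6 and matplotlib 3.10.9 were used.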

Additional observations from a re-analysis of the deposited data

Results flagged for a closer look

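Mir703 and Mir540 stood out because the STZ array lay on opposite sides of the vehicle array in the 2 genotypes. The STZ differences of the genotypes also lay 2-fold or more apart. Taken alone, those of Mir540, -0.49 in WT and 0.54 in KO, and of Mir703 in KO, -0.54, were under 1.5-fold. For Mir703 the STZ difference in KO minus that in WT was -1.33, and for Mir540 it was 1.03. With 1 array per genotype and treatment, neither difference was tested. Both kept their direction and stayed past 1.5-fold under all 5 alternatives run for single genes, at -1.39 to -1.22 for Mir703 and 0.91 to 1.25 for Mir540. Averaging clusters, 1 of the 5, could change neither, since each gene has 1 cluster. The lowest value of Mir540, 0.91, lay under the 2-fold line by which it was flagged.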

How the results depend on the processing

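No paired analysis was possible because each group has 1 array. No result changed direction while past 1.5-fold, and of 34 single differences past it among the named members, 22 stayed past it under all 5 alternatives. Each of the 34 comes from a gene with 1 cluster. Averaging clusters, 1 of the 5 alternatives, leaves such a gene unchanged and could not remove a call. Mir188 in KO against WT under vehicle (0.54 to 0.65), Mir107 in KO (0.50 to 0.77), Mir139 in WT (0.51 to 0.72), Mir34b (0.50 to 0.79) and Mir692-1 (-0.63 to -0.47) fell under it in at least 2 alternatives, and Mir101c, Mir149, Mir1839, Mir344d-2, Mir425, Mir467c and Mir5123 in 1. The members' medians moved by less than 0.1, with ranges of -0.03 to 0.02 for KO against WT under vehicle, 0.04 to 0.13 under STZ, -0.11 to -0.01 for STZ in WT, 0.00 to 0.03 in KO and 0.05 to 0.20 for the difference. The first of these ranges spans 0, as does that in KO. Scaling shifted array medians by at most 0.02. With an offset of 1, which stretches dim genes, counts past 1.5-fold were 5 higher and 5 lower for KO against WT under vehicle, 11 higher under STZ, 8 lower for STZ in WT, 3 higher for STZ in KO and 8 lower for the difference. With the offset at the median they were 1 higher and 3 lower for STZ in WT, 0 higher in KO and 6 higher for the difference. With the level filter at percentile 75, which leaves 40 members, they were 1 lower for KO against WT under vehicle, 2 lower under STZ, 1 higher and 2 lower for STZ in WT, 0 higher in KO and 6 higher for the difference. Without a level filter 2 of 483 genes were higher for STZ in KO, and with the lowess trend subtracted 1 member was lower there. The causes of the last were not tested. Counts for the other 117 combinations of result and alternative stayed within 1.5 times, or within 0.1 for medians.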

Other observations

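Identical intensities on a pair of arrays, as for Mir299a and Mir669a-3 on both WT arrays, occurred in 13 of 483 microRNA genes (2.69%), 2 of them members. Among all other genes they occurred in 124 of 13056 above the threshold (0.95%) and in 303 of 8563 below it (3.54%). Mir186, which is not a member because its mean of 4.84 is under the threshold, read 3.42 and 6.62 in WT, and 2.86 and 6.48 in KO, vehicle before STZ. Both STZ arrays were above the threshold and both vehicle arrays below it, by differences of 0.54 in WT and 0.63 in KO. It was singled out after its values were seen, and no test bears on it.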
